A study of Mus musculus with 25 samples.

Results

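The 10 genes described here encode enzymes of glycolysis, namely *Hk1*, *Hk2*, *Pfkl*, *Aldoa*, *Aldoc*, *Gapdh*, *Pgk1*, *Eno1*, *Pkm* and *Ldha*. They were taken by name from the deposited expression table, in which all 10 were found among 23116 genes, and each passed the filter on low values. RNA-seq was performed on HSLAM cells (LSK+ CD150+ CD48−), a sorted bone marrow population enriched in hematopoietic stem cells, from 3 *Znf143 f/f* and 3 *Znf143 −/−* mice. The study describes 3 pairs of littermates. All mice were adult male C57BL/6 animals between 8 and 12 weeks of age that carried floxed *Znf143* alleles, with loxP sites flanking the first exon, and all were given tamoxifen at the middle dosage over 10 days. Those without the *Rosa26ERT2-Cre* transgene are called *Znf143 f/f* (WT1 to WT3) and those with it *Znf143 −/−* (KO1 to KO3). Cre was driven from the ubiquitous *Rosa26* locus and was present only in the *Znf143 −/−* group, so the deletion and Cre activity cannot be told apart, nor can a change within HSLAM cells be told apart from one that followed deletion elsewhere in the animal.

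Glycolysis splits glucose into pyruvate in the cytosol, with a net gain of ATP and NADH. Hexokinases trap glucose as its 6-phosphate, phosphofructokinase commits the sugar to the pathway, aldolase cleaves fructose 1,6-bisphosphate into 3-carbon sugars, and the later enzymes harvest ATP on the way to pyruvate, which lactate dehydrogenase reduces to lactate. Hematopoietic stem cells reside in a poorly oxygenated marrow niche and are known for relying on glycolysis, and many of these genes are textbook targets of HIF-1 and Myc. Most steps have several isozymes encoded by paralogs. *Aldoa* encodes the muscle-type aldolase used by nearly all cells, whereas *Aldoc* encodes the isozyme best known from brain.

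Among the 10 genes, *Aldoc* fell to 38.7% of its *Znf143 f/f* level in *Znf143 −/−* HSLAM cells, while its more abundant paralog *Aldoa*, at 212 FPKM in *Znf143 f/f* and 193 FPKM in *Znf143 −/−* cells on average, did not pass the test. The last enzymes of the pathway, *Pkm* (1.32-fold) and *Ldha* (1.38-fold), had higher values in every *Znf143 −/−* library than in any *Znf143 f/f* library. *Gapdh*, from an earlier step, separated in the same way, as did 15.4% of all tested genes. None of these 3 members passed the test over all genes. No member other than *Aldoc* passed it in either direction.

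The genotype labels in GEO name the deleted gene as CTCF, whereas the study describes deletion of *Znf143*. *Zfp143*, the mouse symbol of *Znf143* (chromosome 7 of GRCm38, 110061217 to 110095394), had FPKM of 3.07, 4.43 and 3.66 in WT1 to WT3 and 0.155, 0.298 and 0.270 in KO1 to KO3, which is 6.48% of the *Znf143 f/f* level. *Ctcf* ranged from 30.2 to 32.5 in *Znf143 f/f* and from 26.5 to 31.7 in *Znf143 −/−* libraries, with overlapping values. *Zfp143* passed the test (adjusted p = 0.00100 from limma) and *Ctcf* did not (adjusted p = 0.468 from limma). Between 38643255 and 57895793 fragments lay on genes per library. Values are FPKM (fragments per kilobase of gene length, scaled to a library's total), rescaled by median-of-ratios size factors, because the deposited FPKM of KO3 had been divided by the total of KO2. Of the stem cell markers, whose summed FPKM was 522 to 581 in *Znf143 f/f* and 792 to 839 in *Znf143 −/−* libraries with *Ly6a* called higher and *Mecom* lower, *Procr* (an endothelial protein C receptor that marks stem cells) was at 42.9 to 49.4 and *Mecom* (a stem cell transcription factor) at 6.01 to 9.33 in the 6 libraries. *Cd48*, the surface marker against which the cells were sorted, had 9.56 to 11.1 FPKM in *Znf143 f/f* and 19.6 to 20.4 in *Znf143 −/−* libraries, and 4 of 8 granulocyte markers passed the test as higher (*Elane*, *Ctsg*, *S100a8* and *Ngp*), with list sums of 199 to 267 against 265 to 422. Among the other lists, the sums were 540 to 620.0 against 671 to 1011 for 5 megakaryocyte markers, 546 to 586 against 434 to 451 for the 3 monocyte markers in the table (of which *Csf1r* rose, to at most 0.262 FPKM), 56.6 to 101 against 56.9 to 64.8 for 8 erythroid markers (of which *Hbb-bt* passed as lower) and 40.1 to 50.3 against 39.7 to 46.9 for the 7 lymphoid markers in the table. *Lyz2* made up most of the monocyte sum, at 553 and 424 FPKM on average, while *Cd68* was at 16.9 and 19.5 with overlapping values. Some of these marker levels moved with genotype, while *Procr* and the erythroid, lymphoid and granulocyte sums overlapped. The part of the markers in the values below was not tested. In bulk RNA, fewer cells of a type and less RNA per cell cannot be told apart.

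The stretches before the transcription starts are shown for the aldolases, whose values parted, and for *Ldha*, the most abundant of the 10 transcripts. The RefSeq table of GRCm38.p6 gave 18 windows of 250 bases before a start for the 10 genes. Capitals mark the letters ACGTG, the core of the hypoxia response element (with CACGTG, the E-box bound by Myc and Max, which contains it) and CCCANNATG, letters of the ZNF143 motif, all searched on both strands. *Aldoa* lies on the minus strand of chromosome 7, *Aldoc* on the plus strand of chromosome 11 and *Ldha* on the plus strand of chromosome 7, and all are printed 5′ to 3′ in the direction of transcription. That of *Aldoc* is shown as the 145 bases before its first exon in GENCODE.
Aldoa, chr7:126799255-126799504: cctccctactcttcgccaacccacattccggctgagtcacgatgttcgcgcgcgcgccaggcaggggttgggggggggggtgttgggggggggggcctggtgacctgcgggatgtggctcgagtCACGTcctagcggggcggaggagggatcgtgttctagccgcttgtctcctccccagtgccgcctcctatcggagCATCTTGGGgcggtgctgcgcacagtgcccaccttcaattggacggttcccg
Aldoc, chr11:78322823-78322967: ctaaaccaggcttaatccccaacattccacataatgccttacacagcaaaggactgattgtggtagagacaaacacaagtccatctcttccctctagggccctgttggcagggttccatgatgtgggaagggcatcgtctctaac
Ldha, chr7:46845554-46845803: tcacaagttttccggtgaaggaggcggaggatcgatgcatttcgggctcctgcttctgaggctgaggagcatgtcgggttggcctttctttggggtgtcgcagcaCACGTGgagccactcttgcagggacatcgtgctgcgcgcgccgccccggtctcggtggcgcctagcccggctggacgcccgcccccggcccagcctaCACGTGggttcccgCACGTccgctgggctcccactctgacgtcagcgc

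In the *Aldoa* window, the ZNF143 letters (CATCTTGGG as printed, which is the reverse complement) end 43 bases before the start, downstream of 1 ACGTG core. Both windows of *Aldoc*, including the bases not shown, held none of these letters. The *Ldha* window held 3 separate ACGTG cores, of which 2 are E-boxes. The windows of another *Ldha* start and of another *Aldoa* start, not shown, held none of these letters. Among all 32851 windows of the same length, 16.6% held ACGTG, 6.02% the E-box and 4.06% the ZNF143 letters. Of the 18 windows of the 10 genes, 6 held ACGTG (of *Hk2*, *Aldoa*, *Pgk1*, *Pkm* and *Ldha*), 1 the E-box (*Ldha*) and 2 the ZNF143 letters (both of *Aldoa*, in windows that overlap). The 6 windows with ACGTG had 61.6% to 69.6% G and C, beside a median of 52.4% over all windows. The shares were not matched for base content. A match of letters is a description of the window and not a bound site.

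Within the *Znf143 f/f* libraries the 10 genes covered a wide range of levels per gene length. *Ldha* was the highest, at 561 ± 64.0 FPKM (SD, n = 3) and rank 122 of 19279 tested genes. It was followed by *Gapdh* at 330 ± 31.2, *Aldoa* at 212 ± 11.9 and *Pkm* at 163 ± 7.40 (SD, n = 3). *Eno1*, *Pgk1* and *Pfkl* had means of 91.6, 68.5 and 33.2 FPKM, and *Hk1*, *Aldoc* and *Hk2* the lowest means of 19.8, 13.1 and 11.6 FPKM. *Aldoc* and *Hk2* could not be placed in order, since their *Znf143 f/f* values ran from 9.84 to 16.0 and from 10.2 to 14.1. All other neighbours in this order were separated in the 3 *Znf143 f/f* libraries. In *Znf143 −/−* libraries *Aldoc* was the lowest of the 10, at rank 7083 against rank 4135 in *Znf143 f/f* libraries, and *Pkm* ranged from 184 to 237 beside *Aldoa* at 179 to 205.

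**Figure D1:**
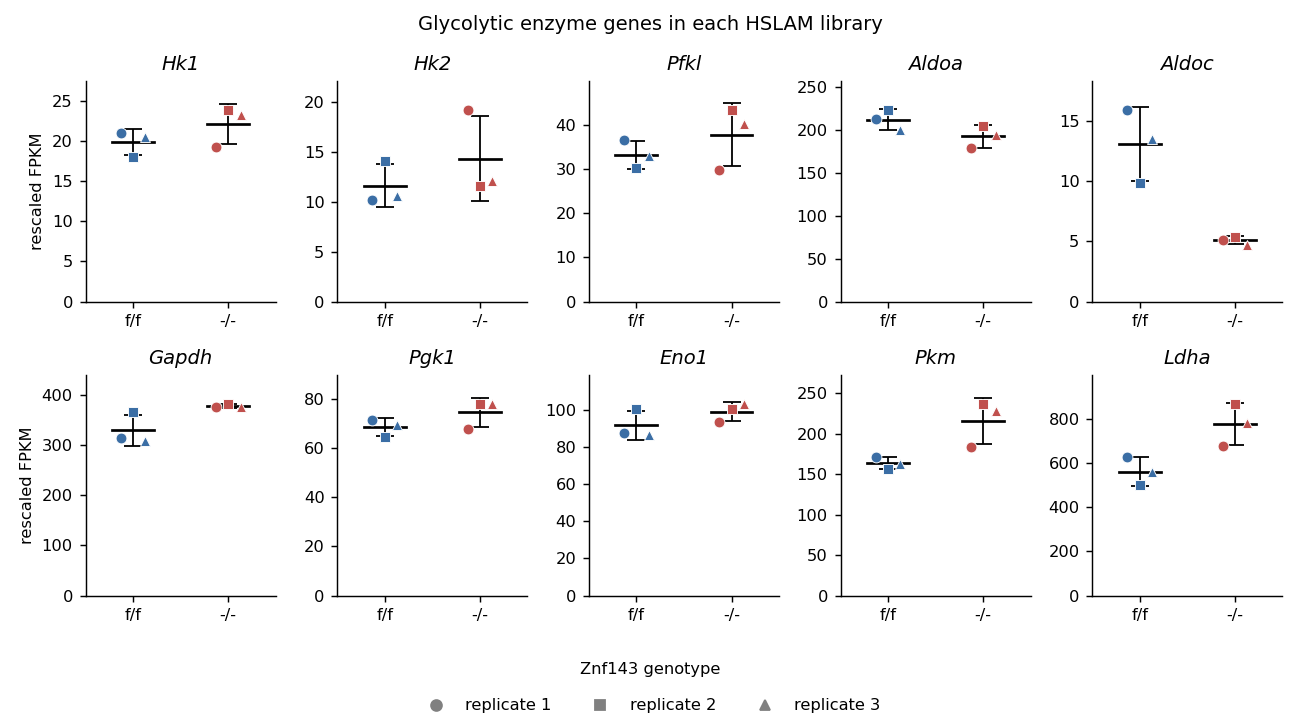
Rescaled FPKM (y axis, from 0, with its own scale in each panel) of the 10 genes in each *Znf143 f/f* (blue) and *Znf143 −/−* (red) library. Symbols mark replicate numbers, horizontal lines the mean and bars the SD (n = 3). In the *Aldoc* panel the *Znf143 −/−* libraries sit between 4.73 and 5.40, all under the lowest *Znf143 f/f* library at 9.84, and in those of *Gapdh*, *Pkm* and *Ldha* all 3 sit above the highest *Znf143 f/f* library.

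The first step is catalysed by hexokinases. *Hk1* (chromosome 10 of GRCm38, 62268855 to 62379908), the housekeeping hexokinase, had 20.9, 18.0 and 20.5 FPKM in WT1 to WT3 and 19.2, 23.9 and 23.3 in KO1 to KO3. KO1 lay among the *Znf143 f/f* libraries and the others above them. The log2 fold change was 0.15 (95% confidence interval -0.12 to 0.43, adjusted p = 0.471 from limma). *Hk2* (chromosome 6, 82725025 to 82774454), the inducible isozyme that binds mitochondria, had 10.2, 14.1 and 10.6 FPKM in WT1 to WT3 and 19.2, 11.6 and 12.1 in KO1 to KO3. WT2 and KO1 were the high libraries of their groups and the other 4 lay between 10.2 and 12.1, so that the interval was wide (log2 fold change 0.28, interval -0.26 to 0.81, adjusted p = 0.506 from limma). The ratio of *Hk2* to *Hk1*, which does not depend on library scaling, was 48.5%, 78.2% and 51.7% in WT1 to WT3 and 100.2%, 48.7% and 52.0% in KO1 to KO3. The groups overlapped (log2 difference 0.12, two-sided exact permutation test, p = 0.6), and the direction turned without KO1 (log2 difference -0.21) and without WT1 (-0.01). KO1 also had the highest sums of granulocyte and megakaryocyte markers (422 and 1011 FPKM), led by *Prtn3* (278) and *Pf4* (820), although it was the lowest *Znf143 −/−* library for the granulocyte markers *Elane*, *Ctsg*, *Ngp* and *Mpo*. WT2 had the highest sum of erythroid markers (101), and the part of any of these in *Hk2* was not tested.

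*Pfkl* (chromosome 10, 77986947 to 78010083), the liver-type subunit of phosphofructokinase, the committed step, had 36.4, 30.2 and 32.9 FPKM in WT1 to WT3. In KO1 to KO3 it had 29.6, 43.3 and 40.2 FPKM. KO1 was the lowest of all 6 libraries and KO2 the highest. The log2 fold change was 0.17 (interval -0.21 to 0.55, adjusted p = 0.565 from limma).

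The aldolase step gave the largest difference among the 10 genes. *Aldoc* (chromosome 11, 78322968 to 78327781) had 16.0, 9.84 and 13.5 FPKM in WT1 to WT3 and 5.10, 5.40 and 4.73 in KO1 to KO3. The *Znf143 −/−* libraries were close to each other, the *Znf143 f/f* libraries differed 1.62-fold between lowest and highest, and the groups did not overlap. *Aldoc* fell by 1.33 on the log2 scale (standard error 0.180, interval -1.75 to -0.90, adjusted p = 0.0114 from limma), with lower values in all 3 *Znf143 −/−* libraries. It was the only member among 1154 genes that passed, 5.99% of the 19279 tested, of which 576 were lower (2.99%). In size of change it ranked 216 among those 576. The adjusted p ranged from 0.00396 to 0.0651 over 15 alternatives and passed 0.05 in 12 of them. It was 0.0651 without KO3, 0.0641 without WT3 and 0.0631 with the replicate number as a block, where the log2 fold changes were -1.28, -1.29 and -1.33. Between 738 and 2003 fragments per library lay on *Aldoc*.

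*Aldoa* (chromosome 7, listed in GENCODE as a pair of adjoining genes, 126795234 to 126800751 and 126800790 to 126809108) had 213, 224 and 200.0 FPKM in WT1 to WT3 and 179, 205 and 195 in KO1 to KO3. KO2 lay among the *Znf143 f/f* libraries. The log2 fold change was -0.14 (interval -0.37 to 0.09, adjusted p = 0.433 from limma), and it was -0.03 with the FPKM as deposited.

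The paralogs were then set against each other within each library. The ratio of *Aldoc* to *Aldoa* was 7.49%, 4.40% and 6.76% in WT1 to WT3 and 2.85%, 2.63% and 2.43% in KO1 to KO3. All 3 *Znf143 −/−* libraries lay below all 3 *Znf143 f/f* libraries, with a log2 difference of -1.20 (p = 0.1 in an exact permutation test, two-sided, below which 3 libraries against 3 cannot go). Leaving out any 1 library gave between -1.43 and -1.05. The summed FPKM of *Aldoa* and *Aldoc* was 225 ± 10.5 in *Znf143 f/f* and 198 ± 13.4 in *Znf143 −/−* libraries (SD, n = 3). It ran from 214 to 234 and from 184 to 210, without overlap after rescaling. *Aldoa* made up 94.2% and 97.4% of this sum on average. With the FPKM as deposited the sums overlapped, since KO3 had 235 for *Aldoa* alone and WT3 had 199 for *Aldoa* and 13.4 for *Aldoc*. The rescaled sums of the hexokinase, glyceraldehyde-3-phosphate dehydrogenase, pyruvate kinase and lactate dehydrogenase genes did not overlap either, and were higher in *Znf143 −/−* libraries.

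**Figure D2:**
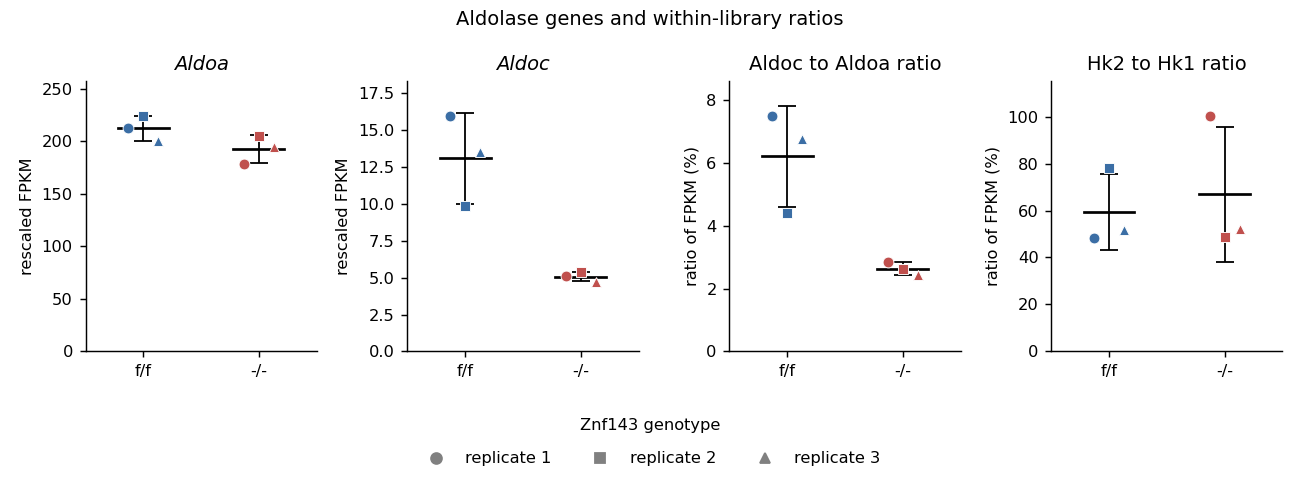
Rescaled FPKM of *Aldoa* and *Aldoc* (y axes from 0) and the within-library ratios of *Aldoc* to *Aldoa* and of *Hk2* to *Hk1* in percent, by genotype, with the mean and SD (n = 3). The *Aldoc* to *Aldoa* ratio lies between 2.43% and 2.85% in *Znf143 −/−* and between 4.40% and 7.49% in *Znf143 f/f* libraries, whereas the hexokinase ratios overlap, with KO1 at 100.2%.

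*Aldoc* lies in a tandem row of genes on the plus strand of chromosome 11, with *Spag5* (a spindle protein gene) ending 510 bases before it and *Pigs* (a GPI transamidase subunit gene) beginning 633 bases after it. *Spag5* had 3.14 ± 0.592 FPKM in *Znf143 f/f* and 3.43 ± 0.291 in *Znf143 −/−* libraries (SD, n = 3), with an adjusted p of 0.664 from limma. *Pigs* had 34.1 ± 4.46 and 33.6 ± 6.24 FPKM (SD, n = 3, adjusted p = 0.929 from limma). The next genes outward were *Unc119*, a lipid-binding trafficking protein gene, with 47.9 and 54.7 FPKM (adjusted p = 0.212 from limma), and *BC030499*, which at 0.0724 and 0.0268 FPKM was below the filter. None of the 3 neighbours that were tested passed. Among 12528 other genes with a mean of at least 1 FPKM, those whose log2 values followed *Aldoc* most closely over the 6 libraries were *Zfr* (Pearson r = 0.9996), *Arhgap45* (0.9981), *St3gal1* (0.9977), *Git2* (0.9973) and *Abhd8* (0.9962). All 5 were lower in every *Znf143 −/−* library but by less than *Aldoc*, with log2 fold changes from -0.53 to -0.32. These correlations describe 6 libraries that share the genotype split and were picked as the highest of many.

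In the second phase of the pathway, *Gapdh* (chromosome 6, 125161715 to 125166467), which forms NADH and 1,3-bisphosphoglycerate, had 315, 365 and 308 FPKM in WT1 to WT3. In KO1 to KO3 it had 377, 383 and 376 FPKM. All *Znf143 −/−* libraries lay above all *Znf143 f/f* libraries, of which WT2 came close (log2 fold change 0.20, interval -0.05 to 0.46, adjusted p = 0.297 from limma). *Gapdh* is often taken as a reference gene, and with the FPKM as deposited its log2 fold change was 0.32.

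*Pgk1* (chromosome X, 106187100 to 106203699), whose enzyme makes the first ATP of the pathway, had 71.6, 64.4 and 69.6 FPKM in WT1 to WT3 and 67.6, 78.0 and 78.0 in KO1 to KO3. *Eno1* (chromosome 4, 150236721 to 150248879), which forms phosphoenolpyruvate, had 87.7, 100.6 and 86.5 FPKM in WT1 to WT3 and 93.3, 100.5 and 103 in KO1 to KO3. Both overlapped between genotypes. Their log2 fold changes were 0.12 (interval -0.10 to 0.34, adjusted p = 0.487 from limma) and 0.11 (interval -0.11 to 0.34, adjusted p = 0.514 from limma).

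*Pkm* (chromosome 9, 59656368 to 59679375), the pyruvate kinase gene of most tissues, had 171, 157 and 162 FPKM in WT1 to WT3 and 184, 237 and 228 in KO1 to KO3. The *Znf143 −/−* libraries were all higher, KO1 by the least. The log2 fold change was 0.40 (standard error 0.121, interval 0.11 to 0.68, unadjusted p = 0.0147 and adjusted p = 0.110 from limma). Over the 15 alternatives the adjusted p ran from 0.0213 to 0.349, and it passed 0.05 only without KO1, where the log2 fold change was 0.51. The table gives 1 value per gene, so the M1 and M2 splice forms of *Pkm* cannot be told apart.

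*Ldha* (chromosome 7, 46841475 to 46855627), which encodes the subunit favouring lactate production, had 626, 498 and 558 FPKM in WT1 to WT3 and 677, 867 and 779 in KO1 to KO3. The groups did not overlap, although KO1 and WT1 were close. The log2 fold change was 0.46 (standard error 0.150, interval 0.11 to 0.82, unadjusted p = 0.0184 and adjusted p = 0.123 from limma), with adjusted p from 0.0604 to 0.346 over the alternatives. *Ldha* alone made up 33.6% to 39.9% of the summed FPKM of the 10 genes in *Znf143 f/f* and 41.0% to 44.4% in *Znf143 −/−* libraries.

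Seen across the 10 genes, 3 had an unadjusted p under 0.05 (*Aldoc*, *Pkm* and *Ldha*), against 24.2% of all genes. In 4 the genotypes did not overlap, with *Gapdh*, *Pkm* and *Ldha* higher (15.4% of all genes) and *Aldoc* lower (15.3%), against 30.7% of all genes in either direction. The log2 fold change was above 0 in 8 and below 0 in 2, the aldolases, under every alternative tried, all of which reuse the same 6 libraries. Over all genes it was above 0 in 9765 of 19279 tested after rescaling. The median of the 10 genes was 0.16, beside 0.006 over all tested genes. With the FPKM as deposited the medians were 0.28 and 0.11. In the *Znf143 −/−* group KO1 held the lowest value of 7 genes and KO2 the highest of 8, whereas among *Znf143 f/f* libraries WT2 was the lowest in 6 and WT1 the highest in the same 6.

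**Figure D3:**
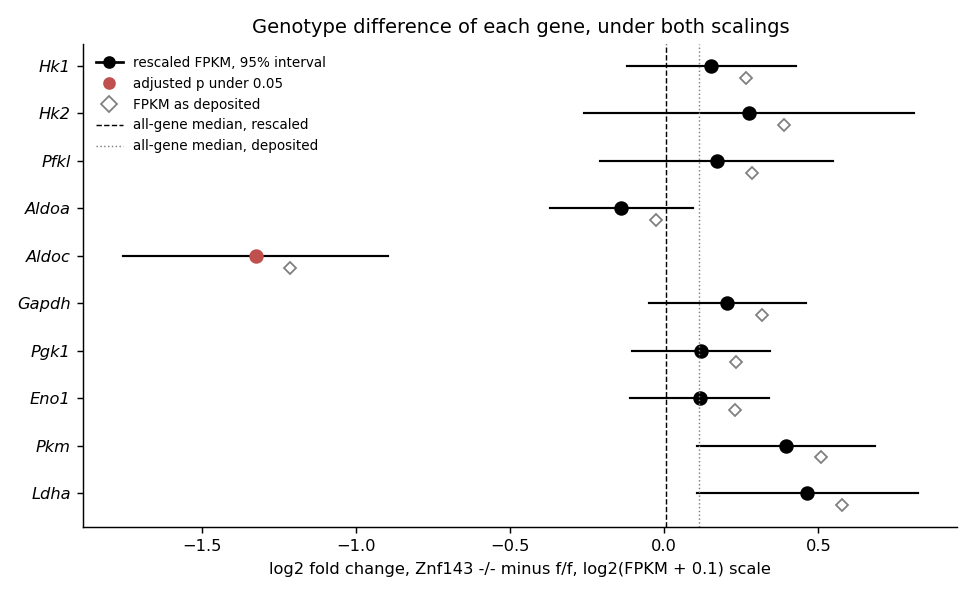
Log2 fold change (x axis, *Znf143 −/−* minus *Znf143 f/f*) of each gene from rescaled FPKM, with its 95% confidence interval as a line, and from the FPKM as deposited (open diamonds). Dashed and dotted lines mark the median of all tested genes under each scaling, 0.006 and 0.114. Only *Aldoc* (red) has an adjusted p under 0.05.

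The isozymes of each step were then compared as shares of the step's summed FPKM in each library, without a test. *Ldhb*, which encodes the heart-type subunit of lactate dehydrogenase, had 132, 147 and 128 FPKM in WT1 to WT3 and 104, 129 and 126 in KO1 to KO3. The share of *Ldha* among the lactate dehydrogenase genes was thus 82.6%, 77.2% and 81.3% in WT1 to WT3 and 86.7%, 87.0% and 86.1% in KO1 to KO3, without overlap. Among the phosphofructokinase genes the share of *Pfkl* was 59.4% to 61.9% in *Znf143 f/f* and 62.4% to 65.0% in *Znf143 −/−* libraries, while the muscle-type *Pfkm* took 27.8% to 29.7% and 24.3% to 27.4%. The platelet-type *Pfkp* took 10.2% to 10.8% and 10.1% to 11.2%. *Hk3*, the myeloid hexokinase, was at 8.95 to 10.8 FPKM in *Znf143 f/f* and at 9.41 to 14.8 in *Znf143 −/−* libraries and took 22.3% to 25.2% and 20.96% to 27.8% of the sum of *Hk1*, *Hk2* and *Hk3*.

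Of the enolase genes, *Eno1* took 75.98% and 77.8% on average and its near-identical copy *Eno1b* 19.4% and 18.8%. The muscle enolase *Eno3* took 4.30 ± 0.622% in *Znf143 f/f* and 3.05 ± 0.495% in *Znf143 −/−* libraries (SD, n = 3), without overlap, and the neuronal *Eno2* stayed at or below 0.552 FPKM. *Pklr*, *Ldhc* and *Gapdhs*, the isozyme genes of liver and red cells, of testis and of sperm, stayed at or below 0.207, 0.272 and 0.567 FPKM.

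**Figure D4:**
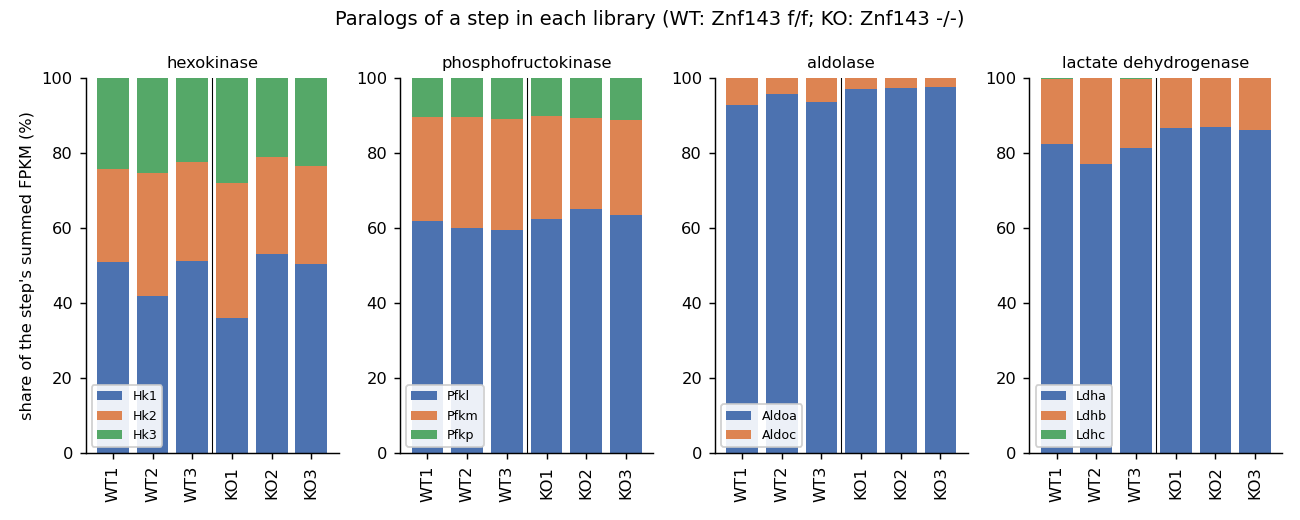
Stacked bars of the share in percent (y axis) that each paralog took of the summed FPKM of its step, in each *Znf143 f/f* (WT) and *Znf143 −/−* (KO) library. The share of *Ldha* lies between 86.1% and 87.0% in *Znf143 −/−* and between 77.2% and 82.6% in *Znf143 f/f* libraries, and that of *Aldoc* between 2.38% and 2.77% against 4.21% and 6.97%.

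Some of these genes share sequence with others. *Eno1b* alone had up to 8.79% as many fragments as *Eno1*, and the 73 near-identical copies of *Gapdh* in the table together had 2.66% to 3.06% as many as *Gapdh*. Copies were taken at 95% identity or more over at least 300 bases of transcript, so reads could have been split between a gene and its copies. *Aldoa* and *Aldoc* had no such copy, nor did they match each other at this identity. Since the library kit does not mark strand, reads from *Hk1os*, which overlaps *Hk1* on the other strand in 157 exon bases, and from *Iffo1*, which overlaps *Gapdh* in 68, cannot be assigned to a strand. *Gm49759* shares 767 of the 5001 exon bases of *Pkm* on the same strand and was not among the table's genes, so how reads there were counted is not known. No other gene in GENCODE overlapped an exon of *Aldoc*.

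The rest of the pathway was followed in fixed lists of genes. Of 14 other glycolytic genes tested, none passed the adjusted test in either direction and the median log2 fold change was 0.04. *Pgam1*, the phosphoglycerate mutase gene of most tissues, had 34.0, 31.6 and 35.0 FPKM in WT1 to WT3 and 39.2, 41.6 and 42.5 in KO1 to KO3 (log2 fold change 0.29, adjusted p = 0.0829 from limma, and 0.0466 without KO1). Its muscle paralog *Pgam2* had 0.804, 0.822 and 0.754 FPKM against 0.215, 0.315 and 0.449 (log2 fold change -1.10, adjusted p = 0.0551 from limma), from 8 to 34 fragments, and passed with a pseudocount of 1 (0.0400) and without the variance trend (0.0461). *Gpi1* and *Tpi1*, whose enzymes interconvert the hexose and triose phosphates, had log2 fold changes of 0.12 and 0.08. Both *Pgam* genes were picked for their values after these were seen.

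The transport list, with the glucose carriers and the lactate carriers, had 8 genes tested and none called, with a median of 0.01. *Slc2a1* and *Slc2a3*, the main glucose carriers, overlapped between genotypes at 11.3 to 15.2 against 11.0 to 13.8 FPKM and at 8.79 to 13.2 against 11.6 to 16.9 FPKM. Of 15 genes that control flux into and out of the pathway none was called and the median was 0.10. The pyruvate dehydrogenase kinase *Pdk3*, which holds pyruvate back from mitochondria, had 54.6 to 57.3 FPKM in *Znf143 f/f* and 59.1 to 87.0 in *Znf143 −/−* libraries (adjusted p = 0.152 from limma, and 0.0113 without KO1). The 8 pentose phosphate genes had a median of -0.03, again with none called.

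Of the gluconeogenesis list 4 genes were tested, and none was called. *Fbp1*, which encodes fructose-1,6-bisphosphatase, the enzyme that opposes phosphofructokinase, had 169, 173 and 158 FPKM in WT1 to WT3. In KO1 to KO3 it had 23.3, 91.2 and 77.5 FPKM. All *Znf143 −/−* libraries were lower, but they differed 3.92-fold among themselves, and the log2 fold change of -1.60 had an adjusted p of 0.108 from limma. It ran from 0.00964 to 0.253 over the alternatives and passed 0.05 only without KO1, the lowest library, where the log2 fold change was -0.99.

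Of the 11 regulators of the hypoxia and Myc programmes, *Egln3* rose and no other was called, and the median was 0.03. *Egln3*, a prolyl hydroxylase that marks HIF for degradation and is itself induced by HIF, had 3.32, 3.86 and 3.74 FPKM in WT1 to WT3 and 5.49, 7.42 and 6.90 in KO1 to KO3. The groups did not overlap (log2 fold change 0.83, standard error 0.142, adjusted p = 0.0231 from limma), with adjusted p from 0.0117 to 0.124 over the alternatives and under 0.05 in 10 of 15. It was 0.0952 without WT1, 0.0975 without WT3, 0.0905 without KO2, 0.124 without KO3 and 0.0709 with the replicate number as a block. *Hif1a* itself had 7.54, 5.52 and 7.65 FPKM in WT1 to WT3 and 4.58, 5.19 and 5.38 in KO1 to KO3 (log2 fold change -0.43, adjusted p = 0.151 from limma, and 0.0286 without WT2). *Myc* was at 116 to 119 FPKM in *Znf143 f/f* and 97.0 to 104 in *Znf143 −/−* libraries (log2 fold change -0.22, adjusted p = 0.146 from limma). Without KO1, when 2112 of 19187 genes passed over the whole table, 8 list genes passed that otherwise did not, namely *Pgam1*, *Adpgk*, *Slc16a1*, *Pdk1*, *Pdk3*, *Rpe* and *G6pc3* as higher and *Fbp1* as lower. Apart from *Egln3*, the genes named in these lists beside the paralogs were chosen after their values were seen.

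**Figure D5:**
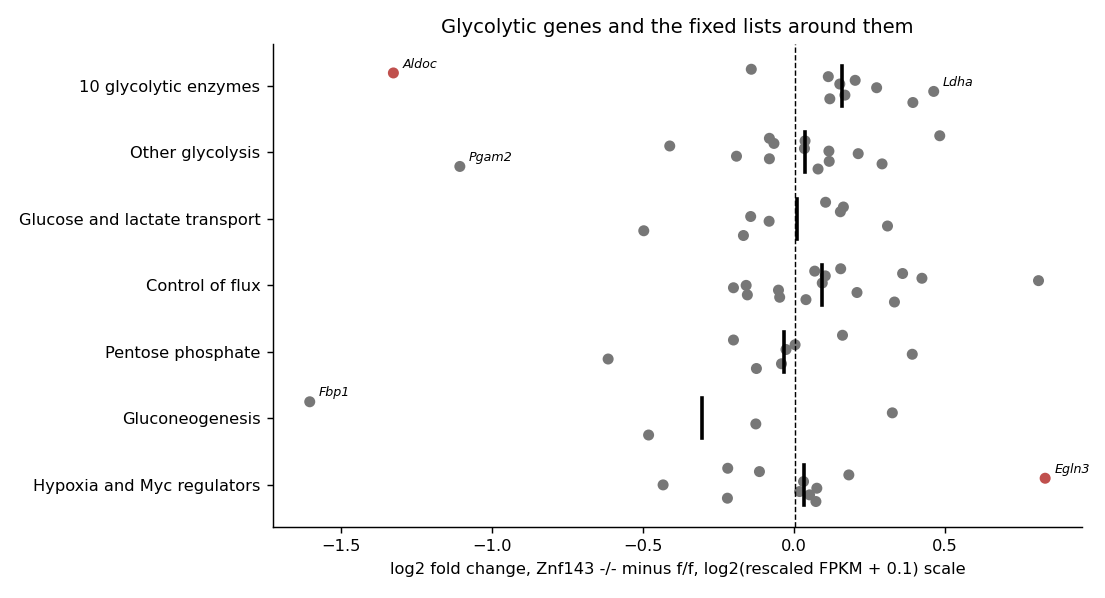
Log2 fold change (x axis, *Znf143 −/−* minus *Znf143 f/f*) of each tested gene in the 10 glycolytic enzymes and 6 fixed lists, with the list medians as black bars and the median of all tested genes as a dashed line. Red points, *Aldoc* and *Egln3*, have an adjusted p under 0.05, and the list medians lie between -0.30 and 0.16.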

How the data were processed

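RNA-seq libraries were made by the authors from sorted HSLAM cells with the SMART-Seq v4 and Nextera XT kits, which do not mark strand, and sequenced as paired ends. TrimGalore, STAR on GRCm38 (mm10) and FeatureCounts gave the authors their counts per gene, and they used DESeq2 for their comparison. The annotation release was not given in the sources used here. The authors deposited FPKM per gene and library with gene lengths and 6 columns of their own comparison (mean, log2 fold change, its error, statistic and p-values), which were not used. Chromatin and contact samples of the series were not analysed here.

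FPKM times length gave whole fragments within 0.05 in 99.986% of 138696 values. These showed 38643255 to 57895793 fragments on genes per library, and a divisor of 48378188 for both KO2 and KO3, although 57895793 fragments lay on the genes of KO3. FPKM were therefore rescaled by median-of-ratios size factors over the 19046 genes above 0 in all libraries. Genes with a mean of at least 0.1 (19279 of 23116) were tested on log2(FPKM + 0.1), which understates changes of low genes, with limma 3.58.1 (lmFit, eBayes with a variance trend, no block) and Benjamini-Hochberg adjustment over all of them, and called at 0.05. On simulated data for this comparison, all 100 genes changed 4-fold and 74 of 100 changed 2-fold were recovered. The simulation gave every gene the same dispersion, changed only genes well above the floor and held no deviating library. These rates need not hold for the real libraries. The study describes 3 pairs of littermates without saying whether library numbers follow them, and same-numbered libraries did not deviate together (correlations -0.095, -0.088 and 0.035). The limma p-values set the genotype difference against the spread between 3 mice per genotype, moderated toward a trend over all genes. The 10 genes, all lists and markers were chosen with earlier results of these data known. Named genes are the 10 members, *Zfp143*, list genes that passed, paralogs, and for *Aldoc* the 5 most similar genes and 4 neighbours. Further list genes and markers were named after their values were seen. *Hkdc1*, *Pgk2*, *Fbp2*, *Pck1*, *Adgre1* and *Rag1* were not in the table. Some paralogs fixed in the lists are not reported here and were left out of the list counts and shares. Coordinates are from GENCODE mouse release M21, copies from blastn 2.17.0 and promoter windows from RefSeq. Alternatives were other scalings, pseudocounts of 0.01 and 1, no filter or a mean of at least 1, voom, no trend, a replicate block and each library left out.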

Additional observations from a re-analysis of the deposited data

How the results depend on the processing

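Of 150 values (10 genes under 15 alternatives each), all 150 kept their direction, 3 lost a call (*Aldoc*) and 1 gained one (*Pkm*). With the replicate number as a block, 191 genes in all passed in place of 1154, and 0 of the 10 members (*Aldoc* -1.33, adjusted p = 0.0631 from limma), with 3539 genes at an unadjusted p under 0.05. The mice came as 3 pairs of littermates, but whether the library numbers follow these pairs is not stated and same-numbered libraries did not deviate together, so it is unknown whether this block is the pairing. Leaving out 1 library at a time gave 223 (without KO3) to 2280 (without WT2) genes in all, with 371 without WT1, 259 without WT3, 353 without KO2 and 2112 without KO1. Of the 10 members 0 to 2 passed, namely 0 without WT3 or KO3 and 2, *Aldoc* and *Pkm*, without KO1. The log2 ratio of *Aldoc* to *Aldoa* ran from -1.433 to -1.049, and that of *Hk2* to *Hk1* from -0.207 without KO1, through -0.006 without WT1, to 0.338. With the FPKM as deposited, 63.5% of 833 called genes were higher (529 against 304), beside 50.1% (578 against 576) after rescaling, and the median of all genes moved from 0.006 to 0.114. The cause of these shifts was not tested beyond the divisor of KO3. At least 738 fragments per library lay on each of the 10 genes.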
